A study of Mus musculus with 6 samples.

Results

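Genes of mitosis and the G2/M transition, 50 in all, were followed in mouse RNA-seq libraries. They were chosen by name from the cyclins, kinases, kinetochore proteins, motors and chromosome proteins that a cell uses to divide. The choice was made with earlier results of these data known, so their shares give no independent support. All 50 had a row among the 25189 gene symbols of the deposited count table, and all 50 were among the 14184 genes with enough counts to be tested. The study compared kidney injury by ischaemia and reperfusion (I/R), in which the blood flow of the kidney is stopped and then restored, with and without C9. C9 is chemerin-9, a short peptide from the end of the protein chemerin that activates the chemerin receptor. The 2 groups were I/R with C9 and I/R, with 3 libraries each, and both came from male C57BL/6 mice of wild-type genotype on day 2. The libraries held 11217252 to 14004529 counts in I/R with C9 and 13069464 to 16938301 counts in I/R, and a member had at least 145 counts in every library. Whether the libraries of a group are different animals is not in the labels, and the p-values therefore describe how these 6 libraries vary, a spread that may be technical. The columns of the treated group were assigned by their initials, a reading that no label could check, and every library has its own batch date, so that batch and treatment cannot be told apart.

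Before mitosis, cyclin-dependent kinase 1 bound to cyclins A and B drives the cell from G2 into division, with the Polo and Aurora kinases acting beside it. Kinetochores then attach chromosomes to the spindle, a checkpoint holds the cell until all are attached, and the anaphase-promoting complex (APC/C) with its partner Cdc20 frees separase to part the sister chromatids. In the adult kidney few cells divide, and surviving tubule cells are known to re-enter the cycle after I/R injury. Transcription of most genes of this kind peaks in G2 and M. Their promoters often hold a CHR element (cell cycle genes homology region), read by the MuvB complexes, and CCAAT boxes, bound by NF-Y.

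The following stretches show how these elements lie in 6 members: Cdc20 and Ckap2 were lower with C9, Kif11 was higher, and Cdk1, Ube2c and Top2a did not pass the test. In these members both motifs lay whole within the 120 bases before the start. The RefSeq start lay at most 10 bases inside the RefSeq gene. They are taken from RefSeq on GRCm38.p6 and are given 5′ to 3′ on the gene's strand. Capitals mark the CHR core (TTTGAA, or TTCAAA where it lies on the other strand) and the CCAAT box (CCAAT, or ATTGG on the other strand). By the gene bounds of the count table, Cdk1 reaches up to 69352938 and Ube2c begins at 164769898. The CHR core nearest the start therefore lies inside the annotated gene in Cdk1 and Ube2c.
Cdc20, chr4:118437344-118437463, reverse strand: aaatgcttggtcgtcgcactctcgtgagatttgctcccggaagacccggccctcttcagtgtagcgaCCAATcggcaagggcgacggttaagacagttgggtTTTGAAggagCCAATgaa
Ckap2, chr8:22185820-22185939, reverse strand: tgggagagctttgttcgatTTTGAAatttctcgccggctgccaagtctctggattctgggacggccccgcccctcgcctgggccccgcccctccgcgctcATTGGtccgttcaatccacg
Kif11, chr19:37376262-37376381, forward strand: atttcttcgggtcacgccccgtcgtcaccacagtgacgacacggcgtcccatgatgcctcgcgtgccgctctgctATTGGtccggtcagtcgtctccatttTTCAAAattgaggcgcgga
Cdk1, chr10:69352913-69353032, reverse strand: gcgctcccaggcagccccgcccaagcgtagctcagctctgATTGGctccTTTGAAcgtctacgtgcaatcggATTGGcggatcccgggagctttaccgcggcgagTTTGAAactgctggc
Ube2c, chr2:164769809-164769928, forward strand: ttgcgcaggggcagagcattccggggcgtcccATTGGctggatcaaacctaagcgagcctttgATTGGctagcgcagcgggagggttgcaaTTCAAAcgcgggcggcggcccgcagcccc
Top2a, chr11:99024190-99024309, reverse strand: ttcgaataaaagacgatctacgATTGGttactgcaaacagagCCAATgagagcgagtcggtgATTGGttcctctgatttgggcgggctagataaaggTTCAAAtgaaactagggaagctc
In 5 of these 6 a CCAAT box stood upstream of the CHR core nearest the start, with 26 to 35 bases between their first bases. That range describes the stretches shown and not the members at large. Espl1, Kif22 and Ect2, for example, hold both motifs in the same 120 bases, but their start lies further inside the RefSeq gene. In Espl1 the motifs begin closer together, at -44 for CCAAT and -27 for TTTGAA counted from the start. In Ckap2 the order was turned round, with the CHR core first, 101 bases before the start. A CCAAT box upstream of a CHR core stood in front of Cdc20, Kif11 and Top2a, whose transcripts fell, rose and did not pass the test with C9. These stretches differed otherwise, with 2, 1 and 3 CCAAT boxes in that order. The CHR core lay on the gene's strand in Cdc20 and on the other strand in Kif11 and Top2a. Whether the layout bears on the response was not tested.

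RefSeq windows of 300 bases, from 250 before the start to 50 after it, were found for 42 of the 50 members. The letters TTTGAA stood on either strand in 31 of the 42 windows (73.8%), against 18.1% of the windows of all 27025 genes in the RefSeq promoter table and 12.1% of those of 9733 genes tested here. The letters CCAAT stood on either strand in 32 of the 42 (76.2%), against 37.9% of all windows and 39.9% of those of tested genes, and 2 or more CCAAT boxes stood in 22 of the 42 (52.4%), against 12.2% and 15.8%. Both motifs together were found in 27 of the 42 (64.3%), against 7.12% and 5.22%. A TTTGAA match and a CCAAT match shared a base in 1 member, Cdca8. By response to C9, TTTGAA was present in 19 of 24 windows of members that fell, in 3 of 6 of members that rose and in 9 of 12 of members that did not pass, and CCAAT was present in 18, 4 and 10 of them. In the same order, both motifs stood in 16, 3 and 8 of these windows, and 2 or more CCAAT boxes in 13, 1 and 8. Single matches were thus found in members of every response, while 2 or more CCAAT boxes stood in only 1 of the 6 windows of members that rose. The start used lay at the outer end of the RefSeq gene in 19 of the 42 windows and more than 100 bases inside it in 6. Some windows therefore do not begin at the outermost start. A match describes letters and is not a measured binding site.

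**Figure D1:**
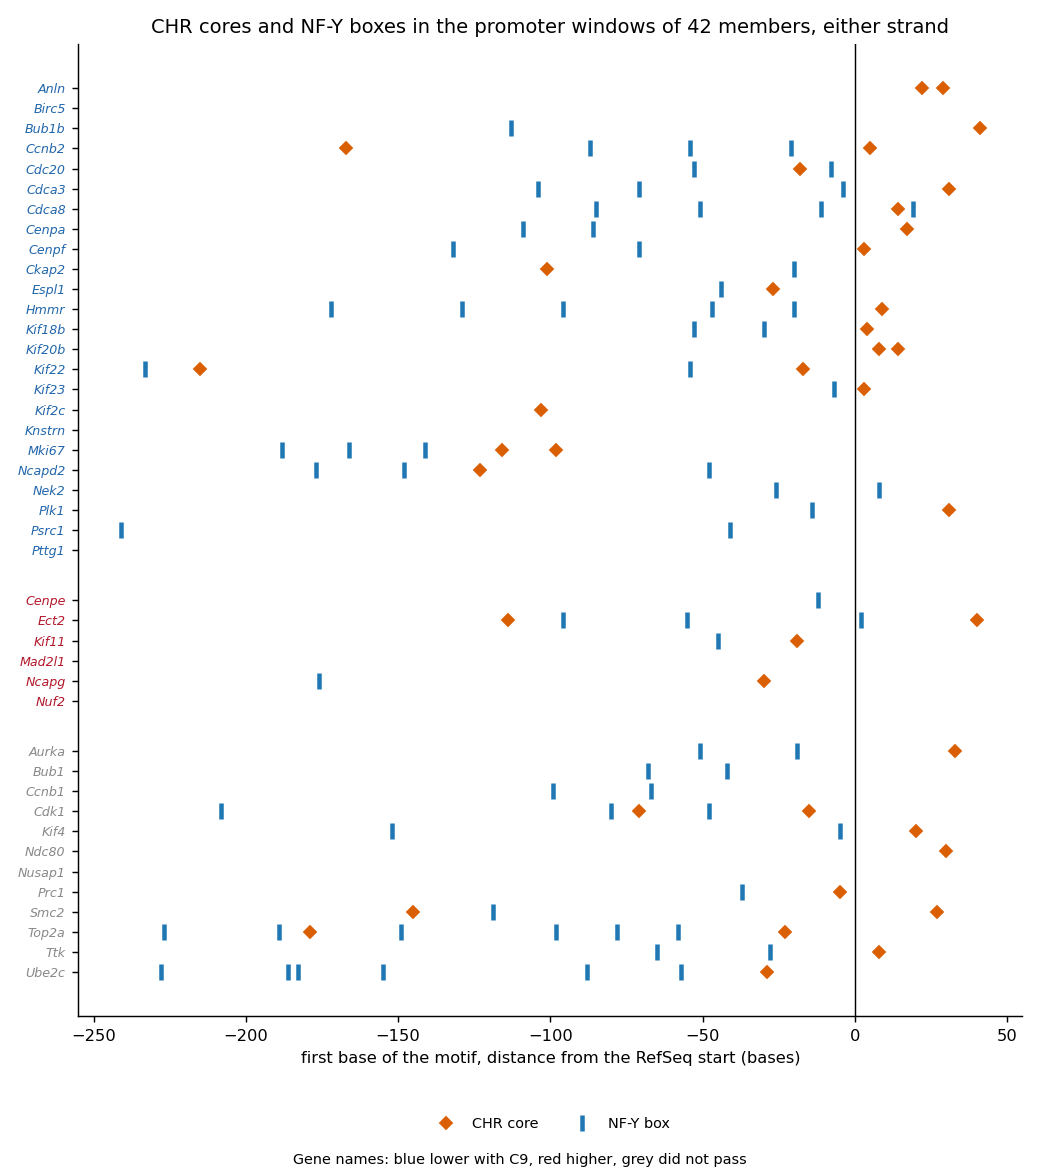
Distance in bases from the RefSeq start to the first base of each CHR core (TTTGAA, diamonds) and NF-Y box (CCAAT, bars) on either strand, in the promoter windows of 42 members. Rows are ordered by response to C9, and 31 of the 42 rows hold a CHR core, among members that fell, rose or did not pass.

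Many kidney cell markers were low in all 6 libraries. The 4 of 9 proximal tubule markers in the table summed to 21.2 to 27.0 CPM (counts per 1000000, scaled by the TMM-adjusted library size) in I/R with C9 and 23.9 to 24.9 CPM in I/R. Aqp2, a water channel of principal cells, averaged 0.107 CPM in I/R with C9 and 0.0926 CPM in I/R. The single loop of Henle and distal tubule marker present of 5, Slc12a1, averaged 0.515 CPM in I/R with C9 and 0.753 CPM in I/R. Aqp2, Slc12a1 and the proximal tubule gene Miox were thus near 0. Most of the proximal tubule sum was Aqp1, a water channel also found outside the tubule, which averaged 17.7 CPM in I/R with C9 and 18.2 CPM in I/R, while the tubule receptor Lrp2 averaged 3.37 CPM in I/R with C9 and 3.19 CPM in I/R. The 4 of 9 leukocyte markers summed to 4.53 to 6.78 CPM in I/R with C9 and 4.61 to 6.09 CPM in I/R. The 3 of 5 red blood cell markers summed to 2.00 to 3.17 CPM in I/R with C9 and 1.64 to 3.68 CPM in I/R, with Hbb-bs at 0 in all 6 libraries. The 6 of 8 tubular injury markers summed to 137 to 142 CPM in I/R with C9 and 134 to 146 CPM in I/R. None of these 3 sums separated the groups, although within the injury list Vcam1 was higher, at 43.7 CPM in I/R with C9 and 24.9 CPM in I/R, and Spp1 and Sox9 were lower (log2 fold changes 0.81, -0.26 and -0.48, each passing the edgeR test). Nearly all of the injury sum was Vcam1 and Spp1, the latter at 90.2 CPM in I/R with C9 and 108 CPM in I/R. The injury markers Lcn2, Krt8 and Krt20 were low, at no more than 1.92 CPM in any of the 6 libraries. By contrast, all 8 markers of fibroblasts and matrix-producing cells were present, at a sum of 3386 to 3484 CPM in I/R with C9 and 3679 to 3769 CPM in I/R. These 8 were uneven, and Fn1, Col1a1 and Col1a2 made up nearly all of the sum. Dcn and Pdgfra averaged only 2.53 and 6.75 CPM in I/R with C9, and 2.13 and 8.45 CPM in I/R. The kidney identity of the libraries is therefore in doubt on these markers, and the tissue is called kidney here by its label alone. The matrix sum was lower with C9 like most members, and Fn1 (fibronectin) made up most of it, at 2122 CPM in I/R with C9 and 2322 CPM in I/R. Within the list Fn1, Col1a2 and Acta2 were lower and Col3a1 and Pdgfrb were higher by the edgeR test. The sums for collecting duct (4 of 6 markers), podocyte (3 of 5) and endothelium (4 of 6) were higher with C9, at 6.85 to 8.02, 26.4 to 28.5 and 9.51 to 11.3 CPM in I/R with C9, against 3.44 to 4.09, 17.1 to 18.2 and 5.40 to 5.83 CPM in I/R. Nearly all of the collecting duct sum was Fxyd4 and of the endothelium sum Flt1, so these are changes of single genes more than of lists. The mitochondrial share of counts also separated the groups, at 2.56% to 2.64% in I/R with C9 and 2.81% to 2.94% in I/R. The part of these shifts in the results on mitosis genes was not tested. In tissue, fewer cells of a kind and less RNA per cell cannot be told apart from counts of this sort.

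Most mitosis genes were somewhat lower with C9. The 50 members together summed to 12159, 11914 and 12205 CPM in I/R with C9, against 13244, 13350 and 12841 CPM in I/R. All 3 sums with C9 lay below all 3 sums of I/R. By edgeR's quasi-likelihood test with Benjamini-Hochberg adjustment over all 14184 genes, at a threshold of 0.05, 30 members were lower with C9, 6 were higher and 14 did not pass. Among all genes tested 51.7% passed, with 26.1% lower (3699 genes) and 25.6% higher (3637 genes), while with library size alone as the scale the split was 2891 lower and 4473 higher. Of the members 72% passed, 60% lower and 12% higher. Among the 8431 genes at or above the level of the lowest member 64.2% passed, 33.9% lower and 30.3% higher.

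Every change was small. The median log2 fold change of the 50 members (I/R with C9 over I/R) was -0.17, against -0.0037 for all genes tested, and the members ran from -0.53 for Psrc1 to 0.31 for Ect2. No member reached a 1.5-fold change in either direction, and 16 of the 36 that passed moved by less than 20%. The 3 libraries of each group did not overlap in 39 members (78%), against 58.5% of all genes tested. Among the 8431 genes at or above the level of the lowest member the share was 69.3%. The authors' deposited table called 34 members, 28 lower and 6 higher, at its FDR under 0.05. Its calls over all genes were not counted here. All 34 members were called here too, and the fold changes of the authors' deposited table had the same direction in all 50. Of the 3 I/R libraries, replicate 3 was the lowest in 29 members and the highest in 14. It stood apart over all genes too, at a chi-square per degree of freedom of 5.61 and 5.14 against I/R replicates 1 and 2. Between replicates 1 and 2 that value was 1.80. Without I/R replicate 3, 30 members were lower and 5 higher, and over all genes 3691 were lower and 3632 higher.

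**Figure D2:**
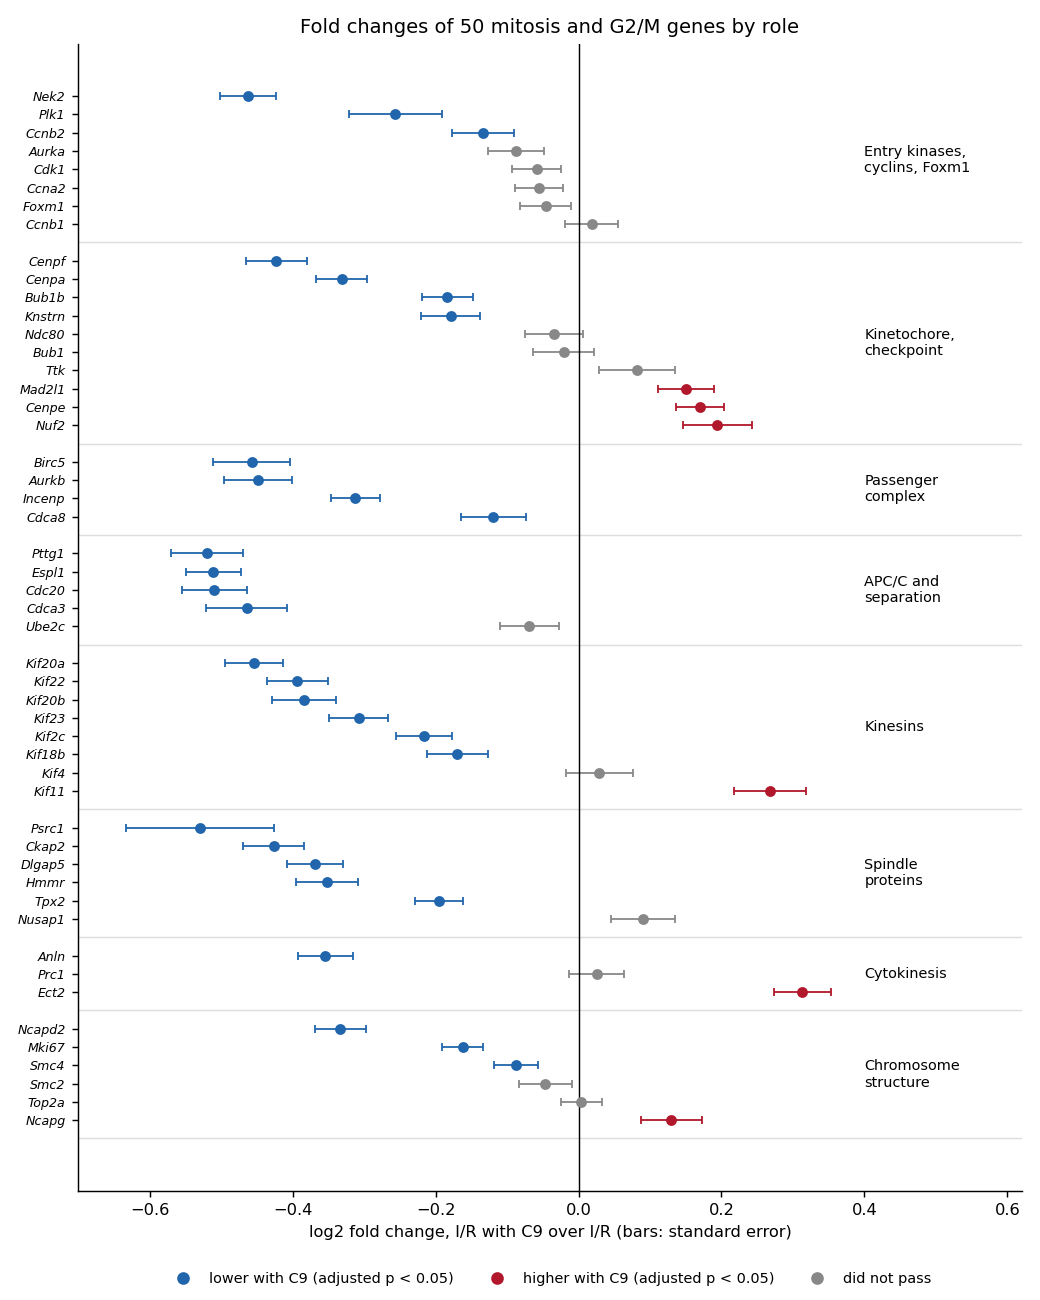
Log2 fold change of each of the 50 members (I/R with C9 over I/R) with its standard error, n = 3 libraries per group, grouped by role. Blue points were lower with C9 and red points higher at an adjusted p under 0.05 (edgeR), and grey points did not pass. All 4 passenger complex points and 4 of 5 APC/C points are blue.

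Among the 8 genes of mitotic entry, 3 fell with C9, none rose and 5 did not pass (median log2 fold change -0.07, and -0.0044 with library size alone). The share that fell, 37.5%, lay near the 33.9% of the 8431 genes at or above the level of the lowest member, of which 30.3% rose. Where GC content and length were corrected for, 5 of the 8 entry genes fell, Cdk1 and Ccna2 among them. The core of the entry machinery, Cdk1, Ccnb1 and Foxm1, did not pass. Cdk1, the kinase that drives entry, had 225, 223 and 227 CPM in I/R with C9, against 229, 240 and 234 CPM in I/R. All 3 treated libraries lay just below the I/R libraries, but the difference did not pass the test (log2 fold change -0.06 ± 0.035 SE, edgeR adjusted p = 0.175). Ccnb1, the cyclin B1 that activates it, had 222, 209 and 215 CPM in I/R with C9, against 215, 216 and 207 CPM in I/R, and the groups overlapped (0.02 ± 0.037 SE, edgeR adjusted p = 0.705). Processed copies of Ccnb1 at over 95% identity exist, and the most counted, Ccnb1-ps, held 181 counts over all 6 libraries. Foxm1, the transcription factor that switches on many G2/M genes, had 182, 187 and 182 CPM in I/R with C9, against 186, 193 and 190 CPM in I/R, with overlapping groups (-0.05 ± 0.036 SE, edgeR adjusted p = 0.305). Ccna2 (cyclin A2) and the spindle pole kinase Aurka had log2 fold changes of -0.06 and -0.09 and did not pass either (edgeR adjusted p = 0.180 and 0.0731). Exosc9 on the opposite strand overlaps 12.5% of the exon bases of Ccna2.

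The 3 entry genes that fell were Nek2, Plk1 and Ccnb2. Nek2, a kinase that parts the centrosomes, had 99.5, 103 and 103 CPM in I/R with C9, against 139, 140 and 142 CPM in I/R. Its groups were widely separated, and its log2 fold change of -0.46 ± 0.040 (SE, edgeR adjusted p = 1.97e-07) was the largest of the entry group. Plk1, the Polo-like kinase of entry and spindle assembly, had 58.9, 66.6 and 65.6 CPM in I/R with C9, against 77.4, 69.5 and 81.6 CPM in I/R. Here the groups came close to each other without overlapping (-0.26 ± 0.065 SE, edgeR adjusted p = 0.00395). Ccnb2 (cyclin B2) had 92.2, 88.8 and 88.6 CPM in I/R with C9, against 97.9, 96.9 and 101 CPM in I/R (-0.13 ± 0.044 SE, edgeR adjusted p = 0.0182). Its groups did not overlap, but the call was lost without C9 replicate 2 or C9 replicate 3 (edgeR adjusted p = 0.0578 and 0.0627), with DESeq2 (adjusted p = 0.0537) and with library size alone (edgeR adjusted p = 0.230).

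**Figure D3:**
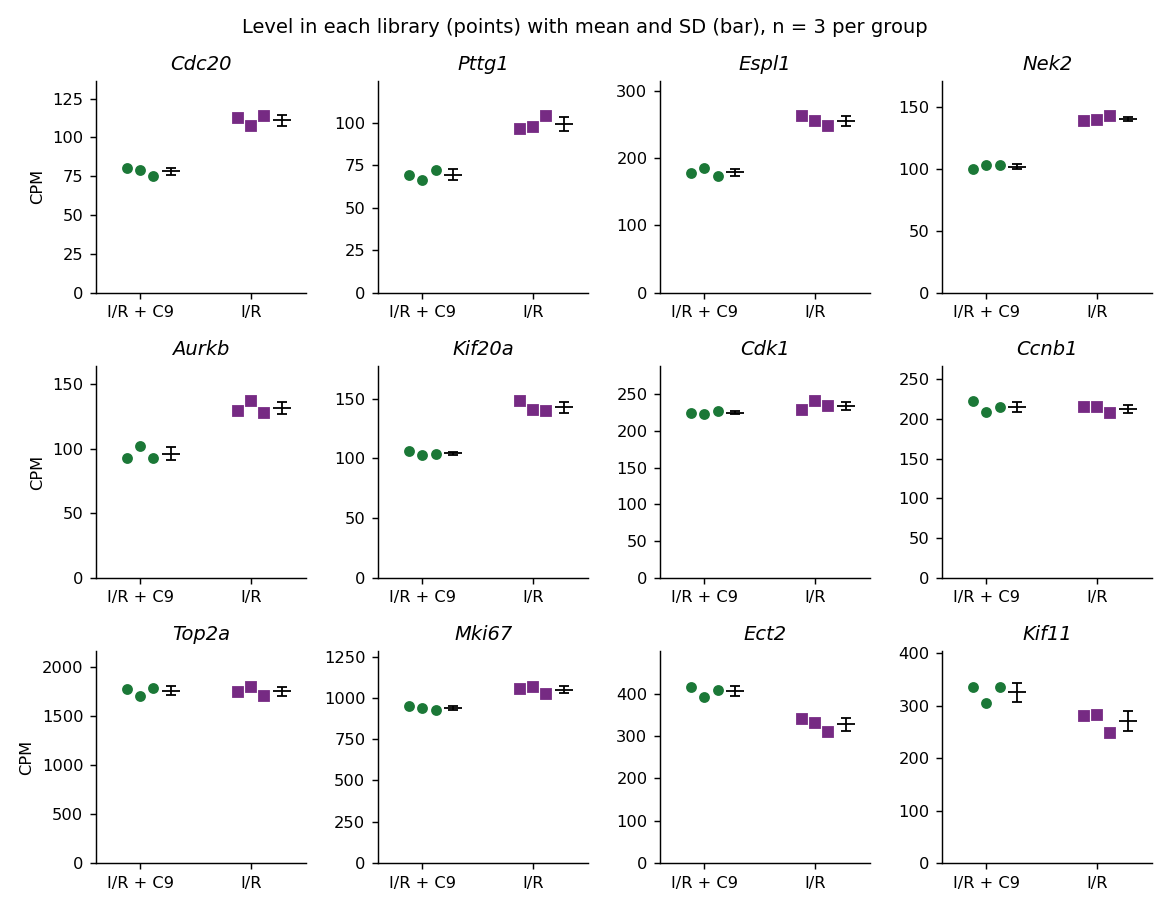
CPM of 12 members in each library (I/R with C9 as circles at left, I/R as squares at right), with mean and SD over 3 libraries at the right of each group; every axis starts at 0. Cdc20, Pttg1, Espl1, Nek2, Aurkb, Kif20a and Mki67 are lower in all 3 C9 libraries, Ect2 and Kif11 are higher in all 3, and Ccnb1 and Top2a overlap.

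Of the 5 genes of the APC/C step and of chromatid separation 4 fell, none rose, and the median log2 fold change was -0.51. Cdc20, the activator through which the checkpoint restrains the APC/C, had 80.0, 78.8 and 75.3 CPM in I/R with C9, against 112, 107 and 114 CPM in I/R (-0.51 ± 0.046 SE, edgeR adjusted p = 3.34e-07). It lies on chromosome 4 at 118432901 to 118437352 on mm10. Pttg1, which encodes securin, the inhibitor that keeps separase closed until anaphase, had 69.5, 66.2 and 72.6 CPM in I/R with C9, against 96.8, 97.8 and 104 CPM in I/R (-0.52 ± 0.051 SE, edgeR adjusted p = 7.86e-07). Espl1, which encodes separase, the protease that cuts cohesin, had 178, 185 and 173 CPM in I/R with C9, against 262, 255 and 247 CPM in I/R (-0.51 ± 0.038 SE, edgeR adjusted p = 5.07e-08). Activator, inhibitor and protease thus fell by similar amounts, and the groups of libraries overlapped in none of them. Cdca3, which takes part in the destruction of the mitotic brake Wee1, also fell (-0.46, edgeR adjusted p = 7.49e-06). Ube2c, the E2 enzyme that hands ubiquitin to APC/C substrates, did not pass (-0.07, edgeR adjusted p = 0.183). Exons of Tnnc2 on the opposite strand overlap 22.8% of its exon bases.

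All 4 genes of the chromosomal passenger complex, which corrects faulty attachments and later guides cytokinesis, fell (median log2 fold change -0.38). Aurkb, its kinase, had 93.2, 102 and 93.2 CPM in I/R with C9, against 129, 137 and 128 CPM in I/R (-0.45 ± 0.048 SE, edgeR adjusted p = 1.91e-06). Birc5, which encodes survivin, had 99.96, 103 and 107 CPM in I/R with C9, against 130, 143 and 153 CPM in I/R (-0.46 ± 0.054 SE, edgeR adjusted p = 5.42e-06). Incenp, the scaffold, had 182, 178 and 185 CPM in I/R with C9, against 224, 226 and 227 CPM in I/R (-0.31 ± 0.035 SE, edgeR adjusted p = 2.99e-06). In each of these the groups lay clearly apart. Cdca8, which encodes borealin, fell less (-0.12, edgeR adjusted p = 0.0399). Its call was lost without any single library other than I/R replicate 2 (edgeR adjusted p = 0.0819 to 0.133), with DESeq2 (adjusted p = 0.0779), and with upper-quartile scaling or library size alone (edgeR adjusted p = 0.0655 and 0.375).

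Kinetochore and checkpoint genes went both ways, with 4 lower, 3 higher and 3 that did not pass out of 10. These shares, 40% and 30%, lay near the 33.9% lower and 30.3% higher of the 8431 genes at or above the level of the lowest member. The median log2 fold change of the 10 genes was -0.03, and 0.04 with library size alone. Cenpf, a large protein of the outer kinetochore, had 331, 319 and 323 CPM in I/R with C9, against 447, 454 and 403 CPM in I/R (-0.42 ± 0.042 SE, edgeR adjusted p = 1.01e-06). Cenpa, the histone variant that marks the centromere, had 180, 180 and 187 CPM in I/R with C9, against 229, 229 and 231 CPM in I/R (-0.33 ± 0.035 SE, edgeR adjusted p = 1.88e-06). Bub1b, which encodes the checkpoint protein BubR1, had 211, 213 and 222 CPM in I/R with C9, against 242, 248 and 244 CPM in I/R (-0.18 ± 0.035 SE, edgeR adjusted p = 5.02e-04). All 3 were lower in each C9 library than in any I/R library. Knstrn, a partner of astrin at the kinetochore, also fell (-0.18, edgeR adjusted p = 0.00208).

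The 3 kinetochore genes that rose are given because the count is small, after their values were seen. Cenpe, the kinesin that carries chromosomes to the spindle equator, had 482, 465 and 483 CPM in I/R with C9, against 431, 432 and 408 CPM in I/R (0.17 ± 0.034 SE, edgeR adjusted p = 6.79e-04). Nuf2, part of the NDC80 complex that grips microtubules, had 126, 126 and 124 CPM in I/R with C9, against 110, 117 and 102 CPM in I/R (0.19 ± 0.048 SE, edgeR adjusted p = 0.00347). Mad2l1, the checkpoint protein that holds Cdc20, had 183, 185 and 192 CPM in I/R with C9, against 166, 174 and 165 CPM in I/R (0.15 ± 0.039 SE, edgeR adjusted p = 0.00491). The groups did not overlap in these 3 genes, and the differences were 10.9% to 14.4%. Mad2l1 and its target Cdc20 were therefore called in opposite directions, but the rise of Mad2l1, like the calls of Cenpe and Nuf2, was lost when GC content and length were corrected for. Ndc80, the partner of Nuf2, and the checkpoint kinases Bub1 and Ttk did not pass, with log2 fold changes of -0.03, -0.02 and 0.08.

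Of the 8 mitotic kinesins 6 fell, 1 rose and 1 did not pass (median log2 fold change -0.26). Kif20a, a motor of the central spindle, had 106, 103 and 104 CPM in I/R with C9, against 148, 141 and 140 CPM in I/R (-0.45 ± 0.041 SE, edgeR adjusted p = 3.34e-07). Exons of Cdc23 on the other strand overlap 29.3% of its exon bases, and whether counting used the strand is not given in these sources. Kif22, a motor that binds chromosome arms, had 91.6, 91.0 and 86.5 CPM in I/R with C9, against 117, 119 and 117 CPM in I/R (-0.39 ± 0.043 SE, edgeR adjusted p = 2.30e-06). Kif20b, a motor of late cytokinesis, had 139, 129 and 129 CPM in I/R with C9, against 177, 177 and 165 CPM in I/R (-0.38 ± 0.044 SE, edgeR adjusted p = 4.34e-06). None of these 3 overlapped between groups. Kif23, Kif2c and Kif18b fell by 0.31, 0.22 and 0.17 on the log2 scale (edgeR adjusted p = 1.84e-05, 2.72e-04 and 0.00374), the last not with library size alone (edgeR adjusted p = 0.0614). The chromokinesin Kif4, 15.1% of whose exon bases overlap Pdzd11 on the other strand, did not pass (0.03, edgeR adjusted p = 0.634).

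Kif11 was the 1 gene of this group that rose, as did the kinetochore motor Cenpe, and outside the members the spindle motor Kif15 (log2 fold change 0.27, edgeR adjusted p = 5.07e-05). Kif11 encodes Eg5, the motor that pushes the spindle poles apart, and had 337, 305 and 335 CPM in I/R with C9, against 280, 282 and 249 CPM in I/R (0.27 ± 0.050 SE, edgeR adjusted p = 4.01e-04). The lowest C9 library was above the highest I/R library, and the difference was 20.5%. This gene lies outside the rule for per-library values and was added after its values were seen.

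Among 6 spindle proteins 5 fell and 1 did not pass (median log2 fold change -0.36). Ckap2, which promotes microtubule growth at the spindle, had 109, 105 and 107 CPM in I/R with C9, against 149, 145 and 138 CPM in I/R (-0.43 ± 0.043 SE, edgeR adjusted p = 1.08e-06). Dlgap5, which encodes HURP, a stabiliser of kinetochore fibres, had 133, 127 and 131 CPM in I/R with C9, against 164, 173 and 167 CPM in I/R (-0.37 ± 0.039 SE, edgeR adjusted p = 1.84e-06). Hmmr, a spindle pole protein first known as a hyaluronan receptor, had 211, 206 and 208 CPM in I/R with C9, against 279, 272 and 248 CPM in I/R (-0.35 ± 0.043 SE, edgeR adjusted p = 7.37e-06). The C9 libraries of each gene lay within a narrow band under the I/R libraries. Tpx2, which activates Aurora A, fell by 0.19 on the log2 scale (edgeR adjusted p = 1.86e-04), and Nusap1 did not pass (0.09, edgeR adjusted p = 0.109). Psrc1, a microtubule-binding protein, added here after its values were seen, had the largest fitted fall of all members and also the largest error (-0.53 ± 0.104 SE, edgeR adjusted p = 5.74e-04). It was the lowest member, also per kilobase of transcript, at 12.6, 14.1 and 11.6 CPM in I/R with C9, against 18.9, 19.1 and 17.4 CPM in I/R, which rests on 145 to 191 counts per C9 library and 242 to 286 per I/R library.

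The 3 cytokinesis genes parted. Anln, which encodes anillin, the scaffold of the contractile ring, had 451, 426 and 451 CPM in I/R with C9, against 583, 581 and 534 CPM in I/R (-0.35 ± 0.039 SE, edgeR adjusted p = 2.50e-06). Ect2, the exchange factor that activates RhoA to place the ring, had 417, 393 and 410 CPM in I/R with C9, against 341, 331 and 309 CPM in I/R (0.31 ± 0.040 SE, edgeR adjusted p = 1.09e-05). Ect2 lies on chromosome 3 at 27097222 to 27153878 on mm10. Prc1, the bundler of the central spindle, had 252, 239 and 250 CPM in I/R with C9, against 248, 247 and 233 CPM in I/R (0.03 ± 0.038 SE, edgeR adjusted p = 0.606), with Rccd1 on the opposite strand over 11.1% of its exon bases. The ring scaffold was lower in every C9 library, the RhoA activator was higher in every C9 library, and the bundler overlapped.

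Of the 6 genes of chromosome structure and proliferation 3 fell, 1 rose and 2 did not pass (median log2 fold change -0.07, and 0.0016 with library size alone). Top2a, the topoisomerase that untangles sister chromatids and the most abundant member, had 1776, 1705 and 1790 CPM in I/R with C9, against 1748, 1801 and 1708 CPM in I/R. The groups overlapped fully, and the log2 fold change was 0.0037 ± 0.029 SE (edgeR adjusted p = 0.928). Mki67, the proliferation marker Ki-67 that coats mitotic chromosomes, had 953, 937 and 924 CPM in I/R with C9, against 1056, 1068 and 1025 CPM in I/R (-0.16 ± 0.028 SE, edgeR adjusted p = 2.29e-04). Mki67 was lower in all 3 C9 libraries, while Top2a was not. Top2a accordingly made up 14.3% to 14.7% of the members' summed CPM in I/R with C9 and 13.2% to 13.5% in I/R.

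Condensin subunits, which compact the chromosomes, were called in both directions, though not in every fit. Ncapd2 had 206, 213 and 208 CPM in I/R with C9, against 264, 256 and 270 CPM in I/R (-0.33 ± 0.036 SE, edgeR adjusted p = 1.95e-06). Ncapg had 257, 255 and 264 CPM in I/R with C9, against 239, 249 and 221 CPM in I/R (0.13 ± 0.042 SE, edgeR adjusted p = 0.0186). Both belong to condensin I, and neither overlapped between groups, but the call of Ncapg was lost without C9 replicate 3 or I/R replicate 3 (edgeR adjusted p = 0.0824 and 0.0507). Where GC content and length were corrected for, Ncapg was at -0.025 (edgeR adjusted p = 0.502), and Smc2 and Smc4 were lower. Exons of Lcorl on the opposite strand overlap 13.4% of its exon bases. The core subunit Smc4 fell by 0.09 on the log2 scale (edgeR adjusted p = 0.0263), a call lost without C9 replicate 1 or 2 or I/R replicate 1 or 2 (edgeR adjusted p = 0.0664 to 0.0827), with upper-quartile scaling and with library size alone (edgeR adjusted p = 0.0613 and 0.641). Its partner Smc2 did not pass (-0.05, edgeR adjusted p = 0.309), but fell without I/R replicate 3 (edgeR adjusted p = 0.0378).

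Levels per kilobase of the longest annotated transcript, which need not be the form expressed, placed Top2a first at 336.5 CPM per kb in I/R with C9 and 335.6 in I/R. Smc4 followed at 179 CPM per kb in I/R with C9 and 191 in I/R, then Tpx2 at 109 and 125 in the same groups. Next in I/R with C9 came Ect2 at 99.4 CPM per kb, against 80.06 in I/R, where it ranked 9 of 50. Psrc1 was the lowest in both groups, at 6.32 CPM per kb in I/R with C9 and 9.14 in I/R. The order at the top was thus the same in both groups for 3 genes, and Ect2 changed rank as its CPM did.

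The direction of a member went with the GC content of its transcript. The 6 members that rose had a GC content of 34.8% to 42.9% (median 40.9%), the 30 that fell 39.4% to 56.1% (median 48.9%), and the 14 that did not pass 39.7% to 55.5% (median 43.8%). Over the 50 members GC content and log2 fold change had a Pearson r of -0.51 and a Spearman rho of -0.52, against -0.15 and -0.18 over 13512 tested genes with a transcript. These correlations run across genes that share the same 6 libraries and are a description. When the dependence on GC content and transcript length was taken out of the fit, an alternative added after the data were seen, 36 members were lower and 2 were higher, with a median log2 fold change of -0.20. Over all genes that fit called 3738 lower and 3335 higher, with a median of -0.016. All 30 members that fell in the first fit fell in this one too. The genes that stayed higher were Ect2 and Kif11. Cenpe and Nuf2 lost their calls (log2 fold changes 0.03 and 0.09, edgeR adjusted p = 0.276 and 0.0637). Mad2l1 and Ncapg turned to -0.0093 and -0.025 (edgeR adjusted p = 0.852 and 0.502). Top2a was then lower (-0.10, edgeR adjusted p = 6.49e-04), as were Ccna2, Cdk1, Bub1, Ndc80 and Smc2. By role, that fit called no kinetochore gene and no gene of chromosome structure higher, 6 and 5 of them lower, and gave medians of -0.13 and -0.20. The part of GC content and length in the changes themselves was not tested.

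**Figure D4:**
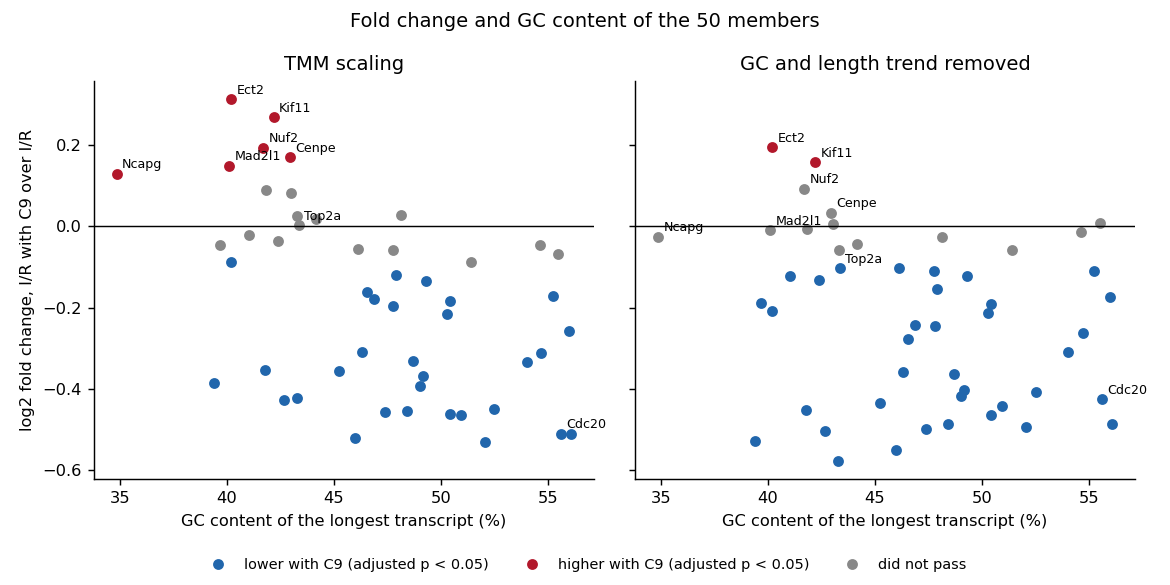
Log2 fold change (I/R with C9 over I/R) of each of the 50 members against the GC content in percent of its longest transcript, with TMM scaling at left and with its trend on GC and length taken out at right; blue, red and grey mark lower, higher and not passed. At left the 6 red points lie at 34.8% to 42.9% GC, and at right Ect2 and Kif11 are the red points that are left.

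Other genes of the same machinery, in lists that do not overlap the members, showed where the falls were found beyond them. These lists too were chosen with earlier results of these data known. Of 21 other G2/M genes of the single-cell cycle-phase list 12 fell and 2 rose (median log2 fold change -0.24). Hjurp, the chaperone that loads Cenpa, averaged 239 ± 5.87 CPM in I/R with C9 and 369 ± 11.3 CPM in I/R (SD, n = 3 each; log2 fold change -0.63, edgeR adjusted p = 3.38e-09), and Tubb4b, a tubulin, and Rangap1 fell by 0.56 and 0.49 on the log2 scale. Of 24 other motor, spindle, centrosome and cytokinesis genes 13 fell and 4 rose (median -0.18), led by Troap (-0.74, edgeR adjusted p = 7.47e-09), Mastl (-0.54) and Numa1 (-0.37). Mastl is the kinase that restrains the phosphatase opposing Cdk1. In both lists the share that fell, 57.1% and 54.2%, was above the 26.1% of all genes tested. It was also above the 33.9% of genes at or above the level of the lowest member. Of the lists that follow, those of Cdk1 control (38.5%) and of DREAM, MuvB and NF-Y (40%) also lay above both shares. Those of kinetochore genes (27.3%) and replication (28.6%) lay above the first.

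Other lists of mitotic complexes had medians above 0. Their shares are to be read beside the 25.6% of all genes tested that rose and the 26.1% that fell. With library size alone the median of all genes tested was 0.07, so medians near 0 depend on the scale. Of 33 other kinetochore and checkpoint genes 12 rose and 9 fell (36.4% and 27.3%, median log2 fold change 0.07). With the GC and length trend removed 8 rose and 11 fell (median 0.0048). The list was led by Mad1l1, the partner of Mad2l1, at 79.8 ± 1.59 CPM in I/R with C9 and 54.5 ± 1.33 CPM in I/R (SD, n = 3 each; 0.55, edgeR adjusted p = 2.97e-07), Dsn1 (-0.35) and Kntc1 (0.27). Of 17 condensin and cohesin genes 11 rose and 3 fell (64.7% and 17.6%, median 0.16), and 7 rose and 4 fell with the GC and length trend removed (median 0.06). It was led by the cohesin genes Stag1, Pds5a and Smc3, which rose by 0.65, 0.36 and 0.32 on the log2 scale. Among 17 APC/C subunits and regulators 5 rose and 4 fell, shares of 29.4% and 23.5% that lie near those of all genes tested (median 0.04, or -0.10 with the GC and length trend removed). Subunits of that 1 complex moved far apart. Cdc27 averaged 329 ± 7.61 CPM in I/R with C9 and 196 ± 7.69 CPM in I/R (SD, n = 3 each; 0.74, edgeR adjusted p = 1.04e-09). Anapc2 averaged 108 ± 3.81 CPM in I/R with C9 and 169 ± 4.83 CPM in I/R (SD, n = 3 each; -0.64, edgeR adjusted p = 1.20e-08), and Cdc16 fell by 0.43.

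Of 13 genes that control Cdk1 activity 5 fell and 3 rose (median log2 fold change -0.11), and 8 fell and 3 rose with the GC and length trend removed. Ccnf (cyclin F) averaged 36.4 ± 0.545 CPM in I/R with C9 and 59.2 ± 1.51 CPM in I/R (SD, n = 3 each; -0.70, edgeR adjusted p = 1.03e-07), while Ensa and Arpp19, the phosphatase inhibitors that Mastl activates, rose by 0.39 and 0.42 on the log2 scale. Mastl and its substrates were therefore called in opposite directions. Of 15 genes of the DREAM and MuvB complexes and NF-Y 6 rose and 6 fell (median 0.04, or -0.0039 with the GC and length trend removed), led by Rbl1, the pocket protein p107, which rose by 0.58, E2f5, which rose by 0.89, and Rbbp4, which fell by 0.30. Of 49 genes of DNA replication and the G1/S transition 18 rose and 14 fell (median 0.04). Rfc5, a clamp loader subunit, rose by 0.65 on the log2 scale and Rrm2, a subunit of ribonucleotide reductase, by 0.48. The 50 members, with 60% lower and 12% higher, thus stood beside replication genes with 28.6% lower and 36.7% higher in the same libraries. No test was made of the difference between lists.

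**Figure D5:**
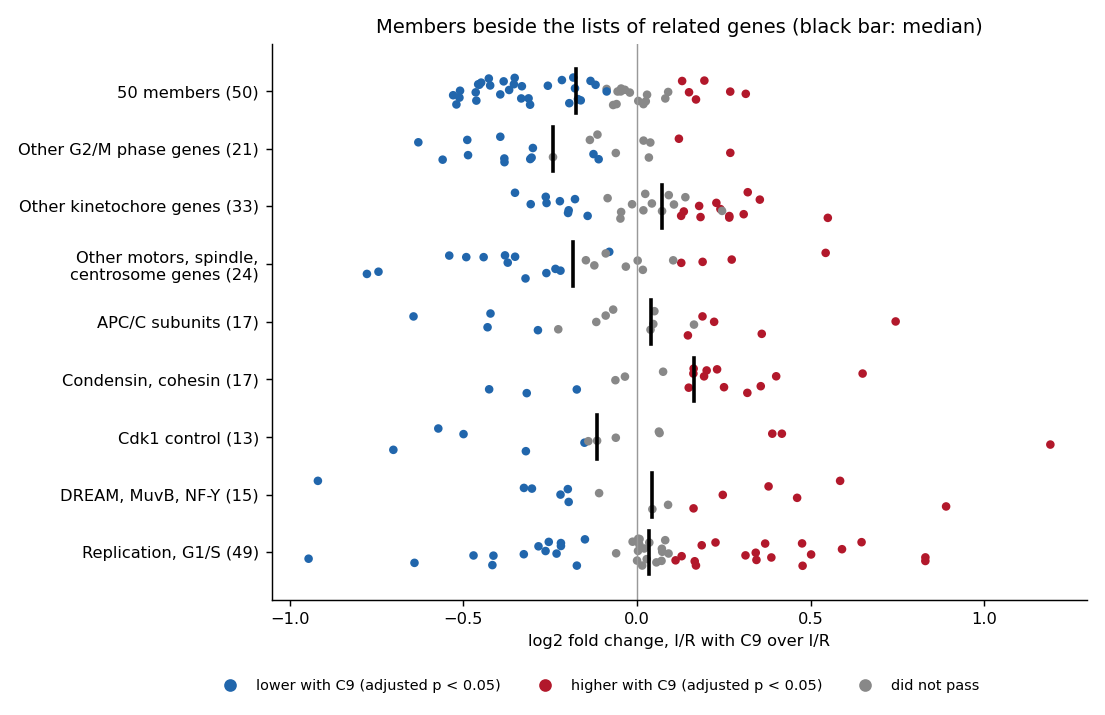
Log2 fold change (I/R with C9 over I/R) of each gene in the 50 members and in 8 lists of related genes, with the number of genes in brackets and the median as a black bar; blue, red and grey mark lower, higher and not passed at an adjusted p of 0.05 (edgeR). The medians of the members, the other G2/M genes and the motor and spindle genes lie at -0.17, -0.24 and -0.18, and that of condensin and cohesin at 0.16 (0.06 with the GC and length trend removed).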

How the data were processed

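RNA-seq was made from samples labelled as kidney tissue of I/R mice with and without C9, on day 2. Per the labels' protocols, a Qiagen reagent gave the RNA and a Vazyme stranded kit the mRNA libraries. HISAT2, HTSeq, DESeq 1.18.1 and mm10 are named in the submitters' processing notes. For the annotation release and strand setting, nothing is given in these sources. The deposited table holds raw counts per gene, whole numbers with different totals, and beside them the authors' log2 fold change, their fold change as a ratio, their p-value and their FDR as deposited. Of its 25216 rows, 27 repeated another row and were removed, and 622 of the 25189 symbols had no count. Genes matched GENCODE M21 on GRCm38, where 97.5% had the same start.

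Groups follow the sample titles. Those of the treated samples all read C9, while the treatment entries run through C9, C10 and C11. The treated columns are named IC, read here as I/R and C9, which no label could check, and every statement on C9 rests on that reading. Each library has its own batch date, so batch and treatment cannot be told apart.

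Counts were tested with edgeR 4.0.16 (R 4.3.3, limma 3.58.1) using TMM scaling, the filterByExpr filter, a quasi-likelihood fit on group, and Benjamini-Hochberg adjustment over 14184 genes at a threshold of 0.05. CPM values are scaled by the TMM-adjusted library size. The biological coefficient of variation was 5.18%. Procedures were tested on simulated data. Alternatives were RLE, upper-quartile and library-size scaling, other count filters, DESeq2 1.42.0, limma-voom, a robust prior, the replicate number as a block, a threshold of 0.1, each library left out in turn and, added after the data were seen, a fit with the GC and length trend removed (mgcv 1.9.3). The members and the lists were chosen with earlier results of these data known, so they give no independent support. Per-library values are given for the 3 members of each role with the smallest p and for Cdk1, Ccnb1, Top2a, Mki67, Plk1 and Foxm1. Up to 3 genes with the smallest p are named per related list, and a gene that this rule would name is not reported here. Copies were searched with BLAST 2.17.0 at 95% identity over 50% of the shorter transcript, and 8 members had one. Exons of a gene on the other strand covered more than 10% of 6 members.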

Additional observations from a re-analysis of the deposited data

How the results depend on the processing

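Of the 50 members, 33 kept their call (lower, higher or not passed) in all 17 alternatives, and 41 did in every alternative but the removal of the GC and length trend. Among those that did not pass, Ccnb1, Foxm1, Kif4, Prc1 and Ube2c kept that status while the sign of their fold change varied. Setting the GC fit aside, 26 of the 30 lower and 5 of the 6 higher members held throughout. With the GC and length trend removed, 2 members were higher, the median log2 fold change was -0.20, and Mad2l1 (-0.0093), Ncapg (-0.025) and Top2a (-0.10) changed sign, as did Ccnb1, Kif4, Nusap1, Prc1 and Ube2c, which passed in neither fit. The cause was not tested. The median was -0.16 with upper-quartile scaling and -0.11 with library size alone, where 26 members were lower and 8 higher, Ttk and Nusap1 among the higher (adjusted p = 0.0281 and 0.00811, edgeR). It lay between -0.19 and -0.17 when 1 library was left out, with 27 to 30 members lower and 5 to 7 higher. Over all genes 3220 to 3691 were lower and 3179 to 3632 higher in these fits. Nusap1 was higher without C9 replicate 2 (adjusted p = 0.0222, edgeR). DESeq2 called 28 members lower and 6 higher, and over all genes 3130 lower and 3182 higher. Replicate numbers were not shown to pair the libraries (correlations of deviations 0.10, -0.052 and 0.042). With the replicate block 30 members were lower and 6 higher, and over all genes 3608 were higher and 3692 lower. Standard errors of the members ran from 0.028 for Mki67 to 0.104 for Psrc1, the member with the fewest counts. Top2a, with 20376 to 28142 counts per library, still had 0.029, so depth alone did not set these errors. The smallest change of a member that passed the main fit was that of Smc4, at -5.9%.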
